A study of Mus musculus with 6 samples.

Results

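The genes described here are the zinc finger genes of proximal mouse chromosome 7. They are the protein-coding genes of GENCODE mouse release 21 whose symbol starts with Zfp or Zscan, that lie on chromosome 7 of GRCm38 with a start below 45000000, and that were selected on a summed count of 60 or more over the 6 testis libraries. Of 88 such genes at any count, 75 met the minimum, out of 55536 genes in the files. The summed count chose the members, so their presence in testis RNA is a description. The rule does not use the genotype labels, but the members were chosen with earlier results of these data known.

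C2H2 zinc finger proteins bind DNA through a row of short finger modules, each of which folds around a zinc ion and reads a few bases. In vertebrates many carry an N-terminal KRAB domain, which recruits the corepressor TRIM28 and, with it, the histone methyltransferase SETDB1, so that the bound site is silenced. KRAB zinc finger genes arose largely by tandem duplication and lie in clusters of related copies, and many of their targets are transposable elements.

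Whole testes of 7-week-old mice were sequenced as poly(A)+ RNA, with 1 library per mouse. The 3 KOStra8 mice carried Sel1L flox/Δ together with Stra8-Cre, an optimized Cre under the Stra8 promoter, which deletes the gene in male germ cells. The 3 HETStra8 mice were littermates described as Sel1L flox/Δ, a group in which the study also placed flox/+ mice with Stra8-Cre, so that each HETStra8 mouse had 1 functional allele in germ cells and its exact genotype was not given per mouse. By the study's staining the Cre left SEL1L, the adaptor of the ER degradation ligase HRD1, in spermatogonia and in Sertoli cells, so both the targeted and the untargeted cells contributed to the RNA.

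Library totals were 28875108 to 36526695 counts. Sel1l counts were 1549, 1603 and 1413 in HETStra8 and 846, 636 and 741 in KOStra8, in the direction of the labels. Of 9 marker lists for cells of the testis and its surroundings, none had a marker at 0. None had a tested marker at an adjusted p below 0.05 in edgeR's quasi-likelihood test, and 4 of 6 epididymis and blood markers were tested. At an unadjusted p below 0.05 in that test 3 of 6 Sertoli markers were lower, where 5.12% of all tested genes were. The elongating spermatid, Leydig and macrophage lists had 1 lower marker each, and 0 markers were higher in any list. The summed level of 8 spermatocyte markers was 1092 to 1292 CPM (counts per 1e6 reads of the library, for these sums without TMM and elsewhere TMM-normalized) in HETStra8 and 1339.5 to 1382.5 CPM in KOStra8, and that of 6 Sertoli markers was 801 to 968 CPM against 654 to 771 CPM, so that neither pair of ranges overlapped. The part of these shifts in the values of the zinc finger genes was not tested, and in whole testis fewer cells of a type and less RNA per cell cannot be told apart.

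The 75 members lay in 13 position groups, in which a new group began where a gene started over 1 Mb after the member before it. There were 7 groups of 3 or more members and 6 genes that stood alone. The largest, from Zfp84 to Zfp146, held 14 members within 0.401 Mb (chr7:29768552-30169750), and the longest, from Zfp788 to Zfp819, held 10 members over 1.99 Mb (chr7:41633203-43618285). The predicted proteins had a median of 642 residues and a median of 12 C2H2 fingers, with a range from 0 to 33. A KRAB sequence pattern was found in 48 of the 75 members (64.0%), against 154 of the 303 Zfp and Zscan genes of other autosomes (50.8%), whose median was 10 fingers. The pattern was found in 11 of the 14 members of the Zfp84 group and in all 10 of the Zfp788 group, whereas it was absent from all of the 6 members from Zfp628 to Zfp580. The member with 0 fingers was Zfp36, the RNA-binding tristetraprolin, which promotes decay of AU-rich mRNAs and has fingers of another type.

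The likeness of the copies limits what a count on any of them means. In 18 members at least 10% of the 50-base sequences of the transcripts occurred in another gene as well. Zfp59, for example, shared 52.4% of them with any other gene, Zfp976 shared 20.4% and Zfp936 shared 15.6%. The gene that held the most of them was Gm7452 for Zfp59, and Zfp975 for Zfp976 and Zfp936. Zfp788 and Zscan22 shared none, Zfp619 shared 0.693% and Zfp110 shared 1.26%. In addition, 20 members overlapped a gene on the opposite strand, and since the strand setting of the counting was not given in the sources used here, reads of such pairs cannot be told apart.

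Together the members took 0.159% to 0.176% of the counts of a library, and 60.1% to 65.3% of that came from 5 genes with a mean of 50 CPM or more. Mean levels of the 75 members ran from 0.354 to 431 CPM with a median of 7.58 CPM. There were 5 members under 1 CPM, 41 from 1 to 10 CPM and 24 from 10 to 50 CPM.

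Per kb of merged exons, the order of levels was led by Zfp541 at 88.4 CPM per kb, Zfp574 at 60.2, Zfp110 at 49.8, Zfp526 at 18.9 and Zfp428 at 11.6. Zfp541, a meiotic chromatin factor that acts with histone deacetylases in pachytene spermatocytes, had 487, 457 and 398 CPM in HETStra8 mice and 413, 413 and 421 CPM in KOStra8 mice. The KOStra8 values lay inside the wider HETStra8 range, and the log2 fold change, KOStra8 over HETStra8, was −0.11 (SE 0.0770), with an adjusted p = 0.598 in edgeR's quasi-likelihood test. The lowest member per kb was Zfp30, a KRAB gene, at 0.0914 CPM per kb. Of the 5 leading genes Zfp110 alone held the KRAB pattern.

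**Figure D1:**
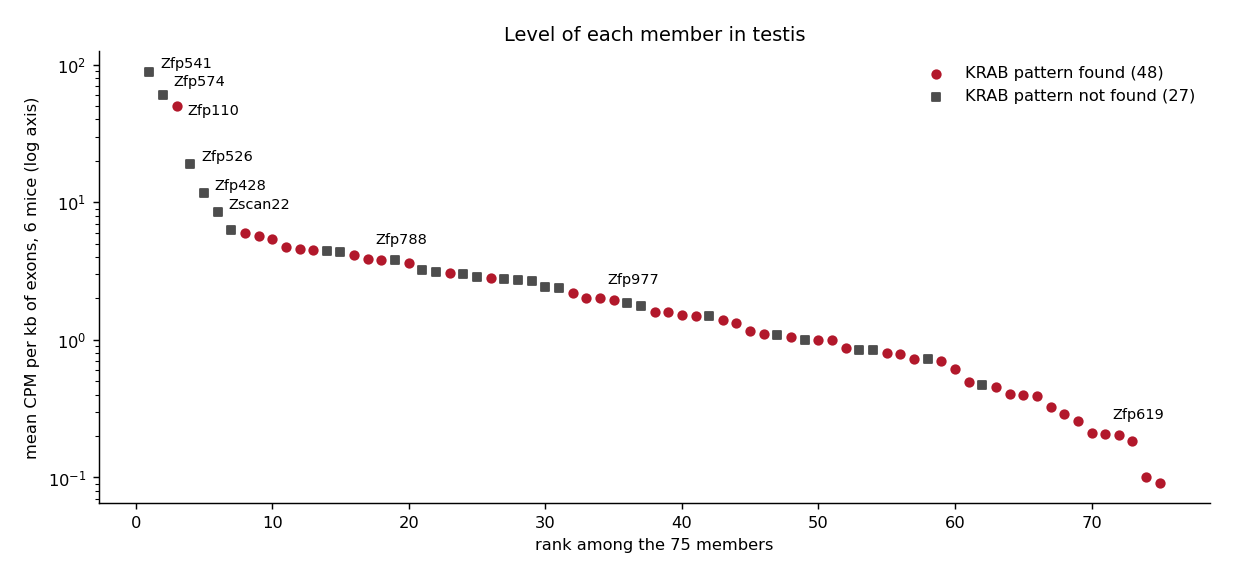
Mean level of each of the 75 members over the 6 mice in CPM per kb of merged exons (log axis) against its rank; circles hold the KRAB pattern (48) and squares do not (27). Zfp541 stands first at 88.4 CPM per kb, and Zfp619 is among the lowest at 0.207 CPM per kb.

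The comparison asked whether these genes differed between KOStra8 and HETStra8 mice. All KOStra8 mice carried Stra8-Cre, and mice described as flox/Δ are named without it. For such mice, loss of SEL1L and the presence of Cre cannot be told apart. All 75 members passed the filter on low counts and were tested among 21465 genes. At an adjusted p below 0.05 in edgeR's quasi-likelihood test, 0 members were higher and 0 were lower in KOStra8, where 0.0186% of all tested genes were higher and 0.00466% were lower. At a fold over 2 with an adjusted p below 0.01 in the same test, 0 members were called in either direction, against 0.00466% of all tested genes higher and 0.00466% lower. These cutoffs are those of the study, which reported many more genes in each direction. The shares given here belong to the edgeR fit and do not stand for the outcome of the study. Whether members are among the genes that the study reported was not tested. Without adjustment, at a p below 0.05, 11 members were higher (14.7%), where 7.13% of all tested genes were, and 4 were lower (5.33%), where 5.12% were. The lowest KOStra8 mouse was above the highest HETStra8 mouse in 13 members (17.3%), against 9.33% of all tested genes, and in 7 members (9.33%) the groups were separated the other way, against 8.43%.

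The tools differed at the threshold. DESeq2 called 2 members higher, Zfp788 and Zfp850, and 2 lower, Zscan22 and Zfp110, while limma-voom called 1 higher, Zfp788. DESeq2 gave no adjusted p for some members with few counts, so it could not call them. Among these were Zfp619, Zfp977, Zfp976, Zfp975, Zfp324, Zfp109 and Zscan5b. Without HETStra8 mouse 3, edgeR's quasi-likelihood test called 6 members higher (Zfp788, Zfp619, Zfp977, Zfp976, Zfp850 and Zfp975, the last named after its values were seen) and 2 lower (Zscan22 and Zfp110). Without HETStra8 mouse 1 it called 2 higher, Zfp619 and Zfp788, and without any other mouse it called 0. The shares of all tested genes called in these other fits are not given here. The calls are therefore not read as particular to the members.

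**Figure D2:**
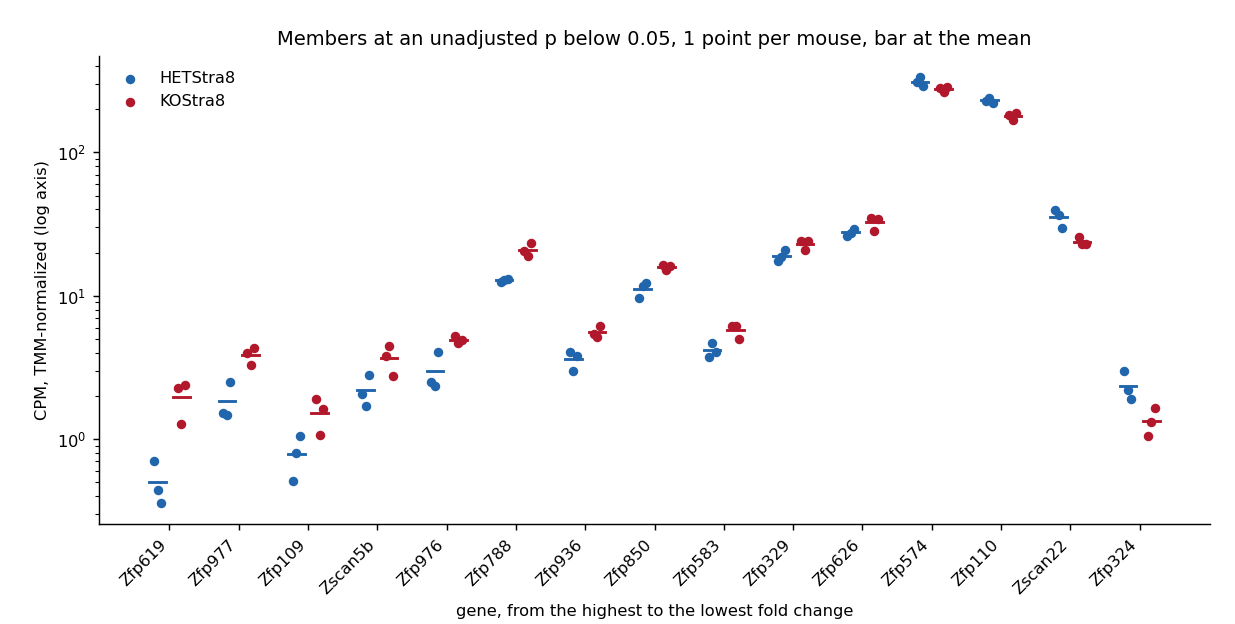
Level of the 15 members at an unadjusted p below 0.05 in each mouse, in CPM on a log axis, with HETStra8 in blue, KOStra8 in red, 1 point per mouse and a bar at the mean of 3 mice. Zfp788 and Zfp619 are separated without overlap on the higher side and Zfp110 and Zscan22 on the lower side, while Zscan5b, in which 2.77 CPM in a KOStra8 mouse lies under 2.82 CPM in a HETStra8 mouse, and Zfp626 overlap.

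Of the 11 members with higher levels in KOStra8 mice at an unadjusted p below 0.05, 5 lay at the distal end of the region, from Zfp619 to Zfp936. Zfp788 (ENSMUSG00000074165, chr7:41633203-41651530), a KRAB gene with 23 fingers, had 392, 437 and 439 counts in HETStra8 and 714, 549 and 854 counts in KOStra8 mice. These were 12.5, 12.99 and 13.2 CPM against 20.4, 19.0 and 23.4 CPM. Every KOStra8 mouse was above every HETStra8 mouse, and the 3 HETStra8 mice were close together. The mean level went from 12.9 ± 0.364 to 20.9 ± 2.25 CPM (SD, n = 3 each). The log2 fold change was 0.70 (SE 0.119), and its adjusted p = 0.0521 in edgeR's quasi-likelihood test just missed the threshold. With values corrected for GC content and length the log2 fold change was 0.41. Over the 15 alternatives tried its adjusted p lay between 6e-05 and 0.481, and it was below 0.05 in 7 of them.

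Zfp619 (ENSMUSG00000068959, chr7:39517766-39540420), the member with the most fingers, 33, and a KRAB pattern, had the largest log2 fold change of the 75. Its counts were 22, 15 and 12 in HETStra8 and 79, 37 and 87 in KOStra8 mice, or 0.700, 0.446 and 0.360 CPM against 2.26, 1.28 and 2.38 CPM. The groups did not overlap, although the counts were low. The log2 fold change was 1.98 (SE 0.394), or 3.94-fold, with an adjusted p = 0.0929 in edgeR's quasi-likelihood test. Corrected for GC content and length it was 1.77. With each mouse left out in turn it stayed between 1.80 and 2.29. Over the 15 alternatives tried the adjusted p of Zfp619 lay between 0.000264 and 0.501, with none given by DESeq2. It was below 0.05 in 4 of them.

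Further along, 3 other KRAB genes of the Zfp788 group had their groups of mice in the same order. Zfp977 (chr7:42579783-42592547) had 1.53, 1.49 and 2.52 CPM in HETStra8 and 3.98, 3.28 and 4.35 CPM in KOStra8 mice, or 1.07 higher on the log2 scale (SE 0.266), with an adjusted p = 0.155 in edgeR's quasi-likelihood test. Zfp976 (chr7:42609526-42642588) had 2.51, 2.35 and 4.08 CPM against 5.21, 4.70 and 4.90 CPM, a log2 fold change of 0.73 (SE 0.236). Zfp936 (chr7:43114229-43192109) had 4.04, 3.00 and 3.78 CPM against 5.38, 5.15 and 6.14 CPM, a log2 fold change of 0.62 (SE 0.197). In each of the 3 genes the lowest KOStra8 mouse was above the highest HETStra8 mouse, and HETStra8 mouse 3 was the nearest to KOStra8 in Zfp977 and Zfp976. None passed the adjusted threshold, and the corrected log2 fold changes were smaller, at 0.77, 0.34 and 0.27. Zfp975, a KRAB gene between Zfp976 and Zfp936, had 1.24, 2.85 and 4.92 CPM in HETStra8 and 3.84, 5.53 and 4.90 CPM in KOStra8 mice, and there the groups overlapped, with a log2 fold change of 0.66 (SE 0.412). Sequence shared with other genes, with Zfp975 most of all, leaves the counts of Zfp976 and Zfp936 uncertain.

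The group was not uniform. Zfp715, its member with the most counts, had 22.6 ± 3.30 CPM in HETStra8 and 25.7 ± 1.29 CPM in KOStra8 mice (SD, n = 3 each), with overlapping values and a log2 fold change of 0.19 (SE 0.120). Zfp658 had 0.450 ± 0.188 against 0.259 ± 0.180 CPM (SD, n = 3 each), with a log2 fold change of −0.76 (SE 0.637), and overlapping mice. Of genes between Zfp619 and Zfp788 that are no members, Gm5592, Gm2128 and Gm6866 were higher in KOStra8 mice by 0.94, 1.09 and 0.73 on the log2 scale. Gm2128 and Gm6866 lie within the bounds of Gm5592, and whether their counts are independent was not tested. In edgeR's quasi-likelihood test the adjusted p was 0.0600, 0.0623 and 0.0521 in that order. On the corrected values it was 0.0479, 0.0479 and 0.0451. They were named after their values were seen.

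**Figure D3:**
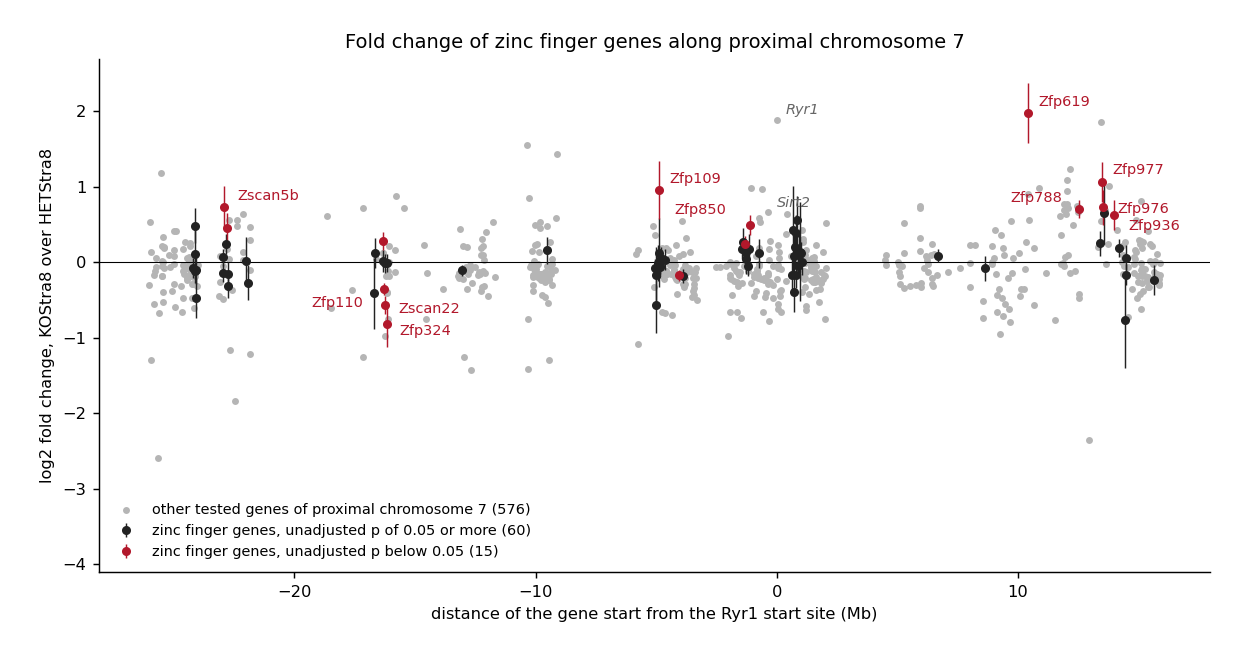
Log2 fold change, KOStra8 over HETStra8, of the 75 members (points with SE bars, red for the 15 at an unadjusted p below 0.05) and of 576 other tested genes of proximal chromosome 7 (grey) against the distance of the gene start from the Ryr1 start site in Mb. Zfp619 at 1.98 and the genes from Zfp788 to Zfp936 stand above 0 beyond 10 Mb, and Zfp110, Zscan22 and Zfp324 stand below 0 near −16 Mb.

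Of the 4 members with lower levels in KOStra8 mice by the same measure, 3 lay in the group from Zfp551 to Zfp446, which holds 9 members. Zscan22 (ENSMUSG00000054715, chr7:12897815-12909083), which belongs to the genes with a SCAN domain, a module through which such proteins pair, had 1255, 1224 and 996 counts in HETStra8 and 904, 662 and 834 counts in KOStra8 mice. Its levels were 39.9, 36.4 and 29.9 CPM against 25.9, 22.9 and 22.8 CPM, without overlap, and HETStra8 mouse 3 was again the nearest to KOStra8. The log2 fold change was −0.57 (SE 0.117), with an adjusted p = 0.104 in edgeR's quasi-likelihood test. Corrected for GC content and length it was −0.47.

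Zfp110 (ENSMUSG00000058638, chr7:12834761-12850577) encodes NRIF, which binds the neurotrophin receptor p75, and was the third most abundant member per kb. Its levels were 229, 241 and 221 CPM in HETStra8 and 183, 168 and 189 CPM in KOStra8 mice. Both groups were tight and did not overlap, and the fold was small. The log2 fold change was −0.35 (SE 0.0736), or 0.783-fold, with an adjusted p = 0.107 in edgeR's quasi-likelihood test. It kept the value of −0.35 under the correction, where the adjusted p = 0.0861 in edgeR's quasi-likelihood test was the smallest of all members.

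Zfp324 (chr7:12965838-12974236), a KRAB gene, had 2.99, 2.199 and 1.92 CPM in HETStra8 and 1.06, 1.31 and 1.64 CPM in KOStra8 mice, and its log2 fold change was −0.82 (SE 0.301), with an adjusted p = 0.305 in edgeR's quasi-likelihood test. The same group held Zfp329, which went the other way, with 17.4, 18.6 and 20.7 CPM against 24.1, 20.8 and 24.1 CPM. Its highest HETStra8 mouse was just under its lowest KOStra8 mouse. Its log2 fold change of 0.28 (SE 0.114) became −0.04 after the correction, and at 40.0% its GC content was the lowest of the group.

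For the leading members the 250 bases before the RefSeq start (GRCm38.p6) are shown where no exon is annotated in them, to set the genes that were higher and lower side by side. The window of Zfp788 lies inside an exon of a longer transcript and is not shown. All 3 genes are on the plus strand, and capitals mark CCAAT boxes.
Zfp619 (chr7:39517516-39517765): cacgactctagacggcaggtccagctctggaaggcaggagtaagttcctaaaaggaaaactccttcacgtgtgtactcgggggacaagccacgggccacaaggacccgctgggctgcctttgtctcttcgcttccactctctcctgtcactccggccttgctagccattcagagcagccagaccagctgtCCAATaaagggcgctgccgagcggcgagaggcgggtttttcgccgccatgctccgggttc
Zscan22 (chr7:12897559-12897808): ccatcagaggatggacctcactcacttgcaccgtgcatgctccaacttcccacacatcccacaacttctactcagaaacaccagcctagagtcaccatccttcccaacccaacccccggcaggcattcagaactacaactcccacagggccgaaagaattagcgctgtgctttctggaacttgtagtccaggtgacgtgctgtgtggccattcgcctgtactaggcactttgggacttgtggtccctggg
Zfp110 (chr7:12834511-12834760): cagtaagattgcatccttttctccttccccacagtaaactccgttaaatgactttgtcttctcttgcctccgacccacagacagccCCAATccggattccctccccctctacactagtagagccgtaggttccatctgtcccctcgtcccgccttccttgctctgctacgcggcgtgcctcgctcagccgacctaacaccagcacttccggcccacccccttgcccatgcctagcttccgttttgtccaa

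The windows hold 16, 6 and 13 CG dinucleotides in that order, and Zfp619 and Zfp110 hold 1 CCAAT box each, while Zscan22 holds none. Of the 75 members 69 matched the RefSeq promoter table, which holds 32851 windows of this length in all. Each of the 69 is taken with 1 window, while all windows of the table are counted, so the sets are not built alike. Each motif was searched on both strands, and none of the 4 overlaps another in its letters. CCAAT was found in 37.7% of the member windows and 33.9% of all windows, GGGCGG in 29.0% and 32.7%, TATAAA in 4.35% and 12.4%, and TGACGTCA in 2.90% and 1.55%. The median number of CG dinucleotides was 11 in member windows and 6 in all windows. These are matches of letters and not sites.

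Other members at an unadjusted p below 0.05 were scattered over the region. Zfp109 (chr7:24227572-24237560), a KRAB gene, had 0.509, 0.802 and 1.05 CPM in HETStra8 and 1.92, 1.07 and 1.62 CPM in KOStra8 mice, a log2 fold change of 0.96 (SE 0.383). Zscan5b (chr7:6222278-6239423) had 2.07, 1.69 and 2.82 CPM against 3.78, 4.46 and 2.77 CPM, a log2 fold change of 0.74 (SE 0.269), and its groups overlapped. These were the only 2 of the 11 higher members with a GC content of 50% or over, and their log2 fold changes were 1.03 and 0.82 after the correction.

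Zfp626, a KRAB gene and the member of its group with the most counts, had 26.2, 27.5 and 29.3 CPM in HETStra8 and 34.9, 28.5 and 34.5 CPM in KOStra8 mice, with a log2 fold change of 0.24 (SE 0.106) that was 0.00 after the correction. Zfp583, named after its values were seen, had 4.19 ± 0.494 CPM in HETStra8 and 5.77 ± 0.660 CPM in KOStra8 mice (SD, n = 3 each), a log2 fold change of 0.46 (SE 0.189). Zfp574, the second most abundant member per kb, was the fourth of the lower members, with 307, 333 and 291 CPM against 279, 262 and 287 CPM and a log2 fold change of −0.17 (SE 0.0736), which was −0.01 after the correction.

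The position of the members was read against the interval between the starts of Sirt2 and Ryr1, the 2 genes of proximal chromosome 7 at an adjusted p below 0.05. Ryr1, an ER calcium channel, had a log2 fold change of 1.89 and the deacetylase gene Sirt2 of 0.66. The nearest members before the interval were Zfp36, at −0.745 Mb from the Ryr1 start, Zfp850, at −1.11 Mb, and Zfp780b, at −1.15 Mb, and those after it were Zfp84, Zfp30 and Zfp790, at 0.643, 0.659 and 0.691 Mb. Zfp850 (chr7:27984854-28014115), a KRAB gene with 16 fingers, had 9.67, 11.7 and 12.3 CPM in HETStra8 and 16.3, 15.1 and 16.1 CPM in KOStra8 mice. Its groups did not overlap, and the log2 fold change was 0.50 (SE 0.132), with an adjusted p = 0.185 in edgeR's quasi-likelihood test, and 0.21 when corrected.

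The other members around the interval were not at an unadjusted p below 0.05. Zfp36 had 3.56, 3.60 and 3.72 CPM against 3.92, 3.94 and 3.97 CPM, groups that do not overlap but differ by a log2 fold change of only 0.12 (SE 0.195). Zfp780b had 4.26 ± 0.356 CPM in HETStra8 and 4.84 ± 0.630 CPM in KOStra8 mice (SD, n = 3 each). On the far side Zfp84 had 3.03 ± 0.687 and 2.7015 ± 0.150 CPM, Zfp30 had 0.472 ± 0.316 and 0.639 ± 0.186 CPM and Zfp790 had 3.56 ± 0.792 and 3.76 ± 1.15 CPM (SD, n = 3 each), all with overlapping mice. Their log2 fold changes were −0.17, 0.43 and 0.09, with standard errors of 0.242, 0.583 and 0.264. None of the 14 members from Zfp84 to Zfp146 was at an unadjusted p below 0.05.

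By group, the median log2 fold change was −0.09 in the 6 members from Zfp628 to Zfp580, 0.02 in the 9 from Zfp787 to Zfp772, −0.01 in the 9 from Zfp551 to Zfp446 and −0.05 in the 12 from Zfp180 to Zfp526. It was 0.17 in the 9 from Zfp607b to Zfp36, 0.11 in the 14 from Zfp84 to Zfp146 and 0.44 in the 10 from Zfp788 to Zfp819. The distal group had the highest median, with 8 of 10 members above 0 and 4 higher at an unadjusted p below 0.05, as 7.13% of all tested genes were, and 1142 of 5349 of those below 45% GC. Its members also had the lowest median GC content of these 7 groups, 41.0%, and after the correction its median was 0.17, with 2 members at an unadjusted p below 0.05. The 18 other tested genes within the bounds of this group had a median log2 fold change of 0.15, and 0.13 after the correction. Without HETStra8 mouse 1 the median of the group was 0.21.

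The group from Zfp551 to Zfp446 had a median of −0.11 after the correction, with 2 of 9 members above 0, and the same 3 genes, Zscan22, Zfp110 and Zfp324, remained at an unadjusted p below 0.05. The 7 other tested genes within its bounds had a median of −0.18, and of −0.32 after the correction. Members of a group lie close together and can share sequence, so they are not independent of each other.

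**Figure D4:**
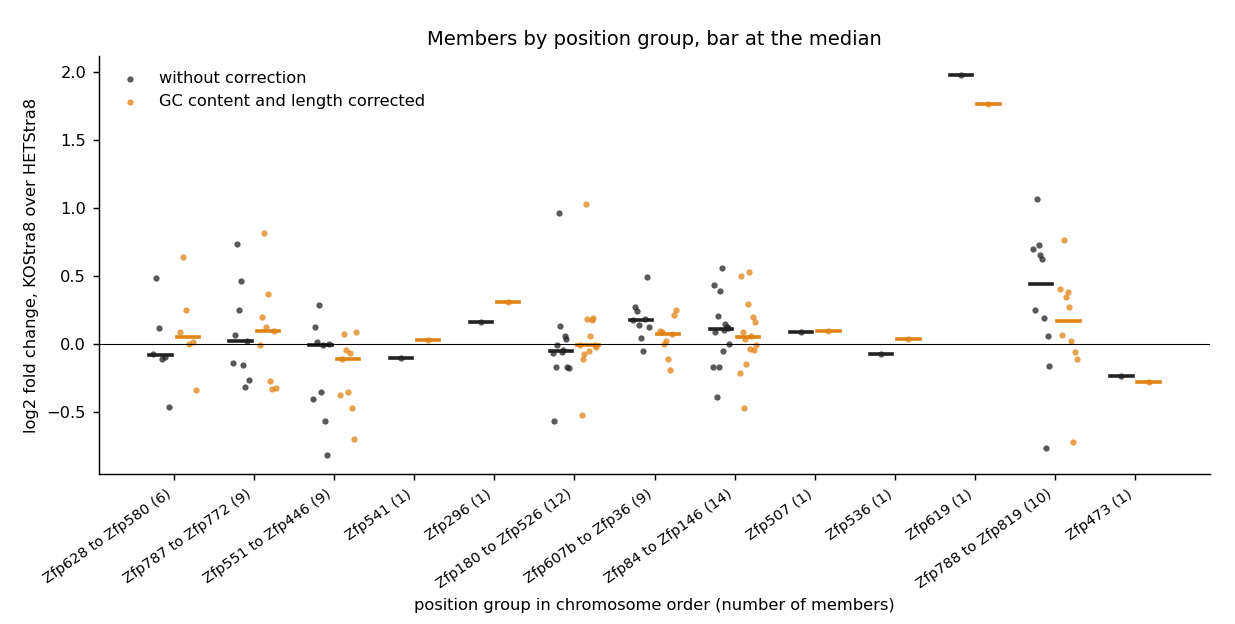
Log2 fold change of every member by position group in chromosome order, without correction (black) and corrected for GC content and length (orange), with a bar at the median and the number of members in brackets. The median of the Zfp788 to Zfp819 group is 0.44 without and 0.17 with the correction, and Zfp619, which stands alone, stays at 1.77.

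The remaining groups are represented by their members with the most counts, none of which was at an unadjusted p below 0.05. Zfp865 had 28.1 ± 1.71 CPM in HETStra8 and 26.1 ± 2.31 CPM in KOStra8 mice (SD, n = 3 each). In addition, 26.8% of its 50-base sequences also occur in other genes, most of all in Zfp784. Zfp667, a KRAB gene, had 15.9 ± 1.20 against 18.8 ± 2.83 CPM, Zfp296 had 6.24 ± 0.969 against 6.97 ± 0.730 CPM and Zfp382 had 9.97 ± 1.46 against 10.8 ± 1.26 CPM (SD, n = 3 each). Each had overlapping mice, except that Zfp667 overlapped by a narrow margin, 16.9 CPM in the highest HETStra8 mouse and 16.9 CPM in the lowest KOStra8 mouse.

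Along the distal stretch, Zfp507 had 50.2 ± 3.30 CPM in HETStra8 and 53.2 ± 1.91 CPM in KOStra8 mice (SD, n = 3 each). Zfp536, a repressor known from neuronal differentiation, had 9.51 ± 1.79 against 9.02 ± 1.05 CPM, and Zfp473, which takes part in histone pre-mRNA processing, had 9.17 ± 2.21 against 7.79 ± 1.37 CPM (SD, n = 3 each). Among the abundant members Zfp526 had 68.0 ± 6.96 against 60.0 ± 0.980 CPM and Zfp428 had 15.0 ± 1.70 against 15.4 ± 1.83 CPM (SD, n = 3 each). The log2 fold changes of these 5 genes lay between −0.24 and 0.09, and none had an unadjusted p below 0.05 in edgeR's quasi-likelihood test.

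The fold change of the members ran with the GC content of their transcripts, as it did across all genes. Spearman's rho between log2 fold change and GC content was −0.467 over the 75 members and −0.472 over 21457 tested genes, all measured in the same 6 libraries. With the correction it was −0.02 and 0.02. Below 45% GC the median log2 fold change was 0.25 in 24 members, 0.43 in 144 Zfp and Zscan genes of other autosomes and 0.19 in all 5349 tested genes of that GC range. In the same range 9 of the 24 members were higher at an unadjusted p below 0.05, against 60 of the 144 and 1142 of the 5349, and 0, 0 and 22 were lower. From 45 to 50% it was −0.06, 0.06 and 0.02, and at 50% and over it was −0.05, −0.13 and −0.11 in the same order. After the correction the members below 45% GC had a median of 0.07 and the genes of other autosomes a median of 0.15.

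With the correction, 6 members were higher at an unadjusted p below 0.05 (8.0%), where 3.73% of all tested genes were, and 4 were lower (5.33%), where 3.23% were. The higher ones were Zfp619, Zfp788, Zfp977, Zscan5b, Zfp109 and Zfp579, and the lower ones were Zfp110, Zscan22, Zfp324 and Zfp28. Zfp579 and Zfp28, named after their values were seen, had corrected log2 fold changes of 0.64 and −0.33. None of the 10 had an adjusted p below 0.05 in edgeR's quasi-likelihood test on the corrected values.

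**Figure D5:**
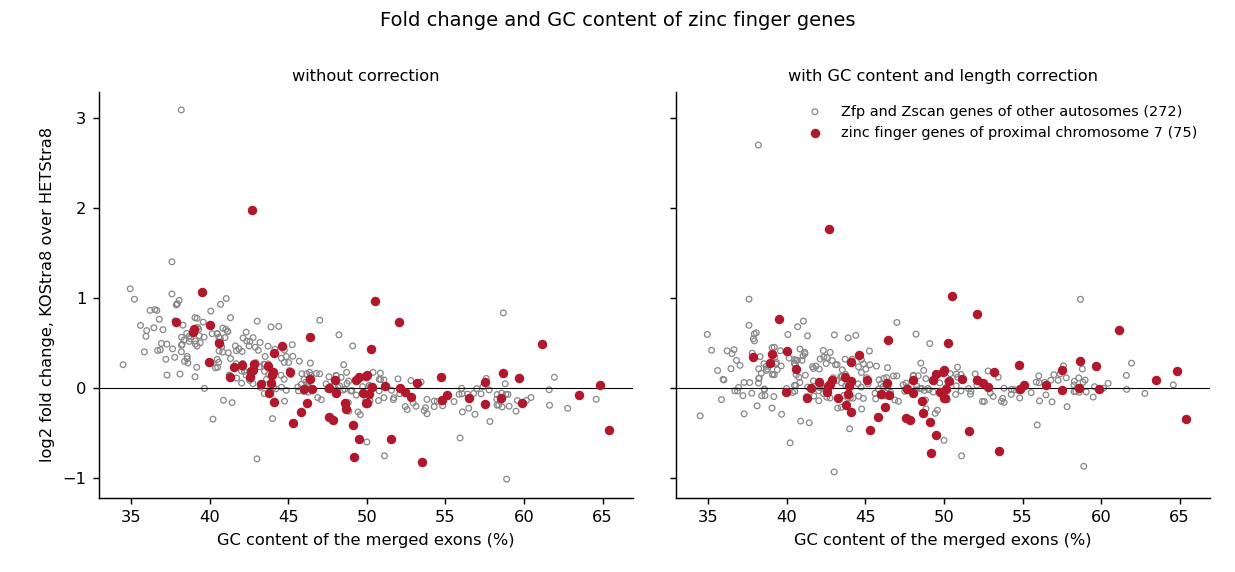
Log2 fold change, KOStra8 over HETStra8, against GC content in percent, for the 75 members (red) and 272 Zfp and Zscan genes of other autosomes (open grey), without (left) and with (right) the correction for GC content and length. GC content is taken over all transcripts of a gene, although the axis names merged exons. On the left the medians go from 0.25 below 45% GC to −0.05 at 50% and over in the members and from 0.43 to −0.13 in the other set, and on the right they are 0.07, −0.07 and 0.07 in the members over the 3 GC ranges while the other set still falls from 0.15 to 0.00.

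Against the Zfp and Zscan genes of other autosomes, the members had the smaller shift. The median log2 fold change was 0.06 in the 75 members, with 43 above 0, and 0.15 in the 272 tested genes of other autosomes, with 185 above 0. At an unadjusted p below 0.05, 66 of the 272 were higher (24.3%) and 8 were lower (2.94%). The 576 other tested genes of proximal chromosome 7 had a median of −0.11, with 36 higher (6.25%) and 76 lower (13.2%), and all 21465 tested genes had a median of −0.01. The median GC content of the 3 sets was 48.6%, 44.5% and 54.0%. With the correction their medians were 0.04, 0.06 and −0.01, and the difference between the sets was not tested.

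By mouse, the median over the members of the deviation from each gene's mean log2 CPM was 0.020, −0.011 and −0.023 in HETStra8 and 0.052, 0.010 and 0.033 in KOStra8, so that the groups overlapped. Over the genes of other autosomes it was −0.139, −0.115 and 0.011 against 0.125, 0.025 and 0.099, and HETStra8 mouse 3 stood apart from the other HETStra8 mice towards KOStra8.

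Among the members, the median log2 fold change was 0.11 in the 48 with the KRAB pattern and 0.00 in the 27 without it. At an unadjusted p below 0.05 the first set held 9 members on the higher side and 2 on the lower, and the second 2 and 2, where 7.13% of all tested genes were higher and 5.12% were lower. On other autosomes 48 of 138 genes with the pattern were higher and 1 was lower, and 18 of 134 without it were higher and 7 were lower. The median GC content of the members was 46.1% with the pattern and 54.7% without it. After the correction the median log2 fold changes of these members were 0.06 and 0.03. The number of fingers had a Spearman's rho of 0.189 with the log2 fold change and of −0.533 with GC content over the 75 members, and of −0.06 with the corrected log2 fold change. The median on other autosomes was 0.41 with the pattern and 0.00 without it, or 0.14 and 0.00 after the correction. The 57 members that share under 10% of their 50-base sequences had a median log2 fold change of 0.02, and the 18 that share more had a median of 0.13.

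At the count minimum, the members just inside were Zfp658, with 71 counts over the 6 libraries, and Zfp30, with 109, and the genes just outside were Zfp114, with 39, and Zfp773, with 38. The other 11 genes outside had 0 to 33 counts. They include the 8 genes of the Zscan4 family, which marks the early mouse embryo, of which 5 had a count of 0 in every library. At this depth no reads were assigned to those 5. Of the 13 genes below the minimum, 10 share at least 10% of their 50-base sequences with another gene. A count of 0 therefore need not mean that the RNA is absent.

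The partners through which KRAB zinc finger proteins act were read from a list of 29 genes, of which 28 were tested. At an adjusted p below 0.05 in edgeR's quasi-likelihood test 0 were called, while 7 were higher and 1 was lower when the unadjusted p was used, at 0.05 (7.13% and 5.12% of all tested genes), and the median log2 fold change was −0.02. With the correction there were 3 higher and 1 lower (3.73% and 3.23% of all tested genes), with a median of 0.02. Trim28, the corepressor itself, had 477 ± 67.4 CPM in HETStra8 and 441 ± 22.2 CPM in KOStra8 mice (SD, n = 3 each), a log2 fold change of −0.11 (SE 0.0909). Setdb1 had 92.8 ± 6.29 against 88.9 ± 2.06 CPM (SD, n = 3 each), a log2 fold change of −0.06 (SE 0.0795). Mphosph8, which belongs to the HUSH silencing complex, had 97.8 ± 17.2 against 139 ± 5.63 CPM (SD, n = 3 each), a log2 fold change of 0.51 (SE 0.107) with an adjusted p = 0.112 in edgeR's quasi-likelihood test. Its corrected value was 0.31. These 3 genes were named after their values were seen.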

How the data were processed

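Testis RNA of 3 HETStra8 and 3 KOStra8 mice was analysed. The authors deposited raw counts, 1 whole number of reads per Ensembl gene and mouse, and the submitters' processing notes name STAR 2.7.1a, featureCounts 1.6.0 and the builds mm10 and GRCm38. All 55536 identifiers matched GENCODE mouse release 21, which gave symbols, positions, GC content and transcripts. The main test was edgeR 4.0.16 (R 4.3.3) after filterByExpr and TMM. It fitted genotype alone by robust quasi-likelihood, and its two-sided F test was adjusted over 21465 genes by Benjamini-Hochberg. CPM were scaled by TMM, except in the marker sums, and a prior count of 2 was added for log2 CPM. The GC content and length correction used offsets from a loess curve per library (span 0.3).

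Fingers and KRAB boxes were searched as patterns in the predicted proteins, the KRAB box within the first 200 residues. Domain calls by a profile method were not made.

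Named members are the 12 with the smallest unadjusted p below 0.05, the 5 highest in CPM per kb, the 3 nearest on each side of the Sirt2 to Ryr1 interval, those at the count minimum and the one with the most counts in each position group. The members and lists were chosen with earlier results of these data known.

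Alternatives were DESeq2 size factors, library totals, no filter on low counts, at least 10 counts in every sample, the replicate number as a block, the correction with and without the block, DESeq2 1.42.0, limma-voom (limma 3.58.1), each mouse left out, a gap of 2 Mb between groups, a summed count of 600 and only members that share under 10% of their 50-base sequences with another gene. The steps were tested on simulated data.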

Additional observations from a re-analysis of the deposited data

How the results depend on the processing

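The count of members at an adjusted p below 0.05, 0 higher and 0 lower, rose to 4 higher and 2 lower with no filter on low counts, to 2 and 2 with DESeq2, to 1 higher with limma-voom or with at least 10 counts in every sample, and with each mouse left out it ranged from 0 to 6 higher and 0 to 2 lower. DESeq2 gave no adjusted p for some members, Zfp619 among them. Members at an unadjusted p below 0.05 ranged from 7 to 15 higher and 2 to 8 lower with each mouse left out, and 6 were higher with the GC content and length correction, with or without the replicate block. Whether the mouse numbers pair the samples is not known. The deviations of same-numbered mice correlated at −0.060, −0.052 and 0.108, and those of other pairs at −0.116 to 0.155. These values cannot decide it, since they are centred within each group of 3 mice. With the number as a replicate block 2 members were higher (Zfp619 and Zfp788) and 1 was lower (Zscan22). Of these alternatives, the share of all tested genes is given only for the correction without the block. The other counts are therefore not read as particular to the members.

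Median log2 fold changes with each mouse left out ranged from 0.0183 to 0.0644 in the members, 0.128 to 0.246 in genes of other autosomes and −0.00838 to 0.00513 in all genes, and from −0.0243 to 0.101 in the Zfp787 group, −0.147 to −0.00861 in the Zfp551 group, 0.113 to 0.209 in the Zfp607b group, −0.0208 to 0.168 in the Zfp84 group and 0.21 to 0.56 in the Zfp788 group. With the correction, and with the correction and the replicate block, the medians were 0.059 and 0.061 in genes of other autosomes, −0.0094 and −0.0096 in other genes of proximal chromosome 7, −0.0030 and −0.0016 in all genes, 0.096 and 0.113 in the Zfp787 group, −0.115 and −0.111 in the Zfp551 group, 0.072 and 0.067 in the Zfp607b group and 0.168 and 0.178 in the Zfp788 group. The median of all genes was 0.0025 with library totals. That of the Zfp788 group was 0.63 with at least 10 counts in every sample, and that of the Zfp787 group was 0.062 with limma-voom. With a gap of 2 Mb the groups that contain Zfp787, Zfp607b and Zfp788 had medians of −0.077, 0.124 and 0.251. The 57 members that share under 10% of their 50-base sequences had a median of 0.016.

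The sign changed with the correction, and with the correction and block, in Zfp329 (−0.044 and −0.044), Zfp541 (0.030 and 0.030), Zfp865 (0.0024 and 0.00056) and Zfp536 (0.038 and 0.059), and with both in Zfp626 (−0.00052). With each mouse left out the log2 fold change crossed 0 in Zfp428 (−0.028 to 0.130), Zfp84 (−0.309 to 0.018), Zfp30 (−0.016 to 0.884), Zfp790 (−0.077 to 0.318) and Zfp536 (−0.202 to 0.081). The cause was not tested. Depth limits the members under 1 CPM.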
